A study of Rattus norvegicus with 72 samples.

Results

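A pair of rat brain regions, the central amygdalar nucleus (CeA) and the dorsal vagal complex (DVC) of the brainstem, were compared at ZT5, 5 h after lights on, across all 145 genes of the panel. It rests on 31 of the 72 samples of the series, chosen by their labels: 17 DVC and 14 CeA samples from 18 male Sprague Dawley rats. Both regions were measured in 13 of these animals, the DVC alone in 4 and the CeA alone in 1. All rats of both groups were alcohol-naïve and untreated, and received a restricted amount of a maltose-dextrin liquid diet that was matched to the intake of alcohol-fed partners. Each sample was 1 animal's bilateral micropunch of the region, and no animals were pooled. Expression was measured by microfluidic qRT-PCR as C_T, the cycle at which a reaction crosses the detection threshold. A lower C_T means more transcript, and 1 cycle is worth about 2-fold if each cycle doubles the product. Differences are given as CeA minus DVC in cycles of the normalized C_T and are therefore positive where the DVC had more transcript.

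The DVC of the brainstem holds the nucleus tractus solitarius, which receives visceral afferents and contains noradrenergic neurons, and the dorsal motor nucleus of the vagus. The CeA is largely GABAergic, shares many genes with the striatum, and is connected with the DVC in both directions. The panel holds receptors for GABA, glutamate, angiotensin and peptides, the kinases and G-protein regulators that act beneath them, and transcription factors. In pieces of tissue, fewer cells of a type and less RNA per cell cannot be told apart.

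The assays behind the clearest separations are shown by their primers, from the study's primer list, forward and then reverse, 5′ to 3′, so that each measurement can be traced to a transcript. They belong to 8 of the 9 genes whose DVC and CeA samples did not overlap and to Slc6a2, which was seen in nearly all DVC samples and in 1 CeA sample. Primers were between 18 and 24 bases long, and their place in the transcripts was not determined because no genome of a stated build was used.
Ptk2b, higher in CeA, forward: caatctgctggctcctaagc
Ptk2b, reverse: taggagagctggcacacaga
Gabrd, higher in CeA, forward: ggacgagcaggagtgcat
Gabrd, reverse: gctcctggttttctgaccaa
Rgs14, higher in CeA, forward: cctggtgggcaaagaaca
Rgs14, reverse: ccagtcgcacttcctggt
Itpr1, higher in CeA, forward: catcacagccctcatccttaac
Itpr1, reverse: ggagtagctttgaagcattgttct
Gabrq, higher in DVC, forward: catatgatgtccgactgagacc
Gabrq, reverse: gatagatattgacacaggcacagg
Nr4a2, higher in DVC, forward: ccacgtcgactccaatcc
Nr4a2, reverse: tagtcagggtttgcctggaa
Snx10, higher in DVC, forward: cccagaacagcagaaagagg
Snx10, reverse: ccttctgaatcctggggtct
Rgs7, higher in DVC, forward: aattatggccagaccagcaa
Rgs7, reverse: cgtgctatgacatcttccatct
Slc6a2, seen in DVC, forward: ctgtcctgttcttcctgatgc
Slc6a2, reverse: gtgatgactgcctccatgc

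The 3 samples DVC replicate 3, DVC replicate 17 and CeA replicate 1 stood apart from the rest of their region. CeA replicate 1 had values for 67 genes, because the 72 assays of the first set were not measured in it and 6 more reactions failed. In DVC replicate 17 the unnormalized median C_T of the first assay set lay 1.68 cycles above that of the second set, against −1.07 to 0.26 in the samples that did not stand apart. By region, this offset ran from −1.07 to −0.26 in the CeA samples with both sets. It ran from −1.03 to 0.26 in the DVC samples that did not stand apart. DVC replicate 3 deviated from its region by a median of 0.68 cycles per gene, CeA replicate 1 by 0.69 and DVC replicate 17 by 0.81, against at most 0.55 elsewhere. Otherwise between 1 and 6 reactions failed per DVC sample and between 2 and 8 per CeA sample. Before normalization the median C_T was higher in the CeA in 11 of 13 animals, by 0.95 ± 1.19 cycles (SD, n = 13; exact sign-flip test, two-sided, p = 0.0151). In CeA replicate 1 this median covers the second assay set alone, whereas that of its DVC partner covers both sets. Without CeA replicate 1 the median was higher in the CeA in 10 of 12 animals, by 0.80 ± 1.10 cycles (SD, same test, p = 0.0303). The authors' quantile normalization of all samples together removes this offset, which is of the size of many of the differences below. A shift of all genes between the regions is therefore not part of the values, and a gene is higher or lower relative to the rest of the panel. A shift of 1 assay set against the other can remain in the values, and only the scalings within each assay set below remove it.

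At ZT5, 72 of the 143 genes with values from both regions in at least 3 animals differed between the regions (50.3%; limma with the animal as a block, Benjamini-Hochberg adjusted p at most 0.05). Of these, 41 (28.7%) had more transcript in the DVC and 31 (21.7%) in the CeA. The difference was at least 1 cycle for 30 called genes (21%), 17 of them toward the DVC and 13 toward the CeA, and its median size over the 72 called genes was 0.92 cycles. In 31 called genes every animal with both regions moved the same way. The exact sign-flip test over animals also called 72 genes, 68 of them shared with limma. The plot of ranked differences shows the whole panel.

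**Figure D1:**
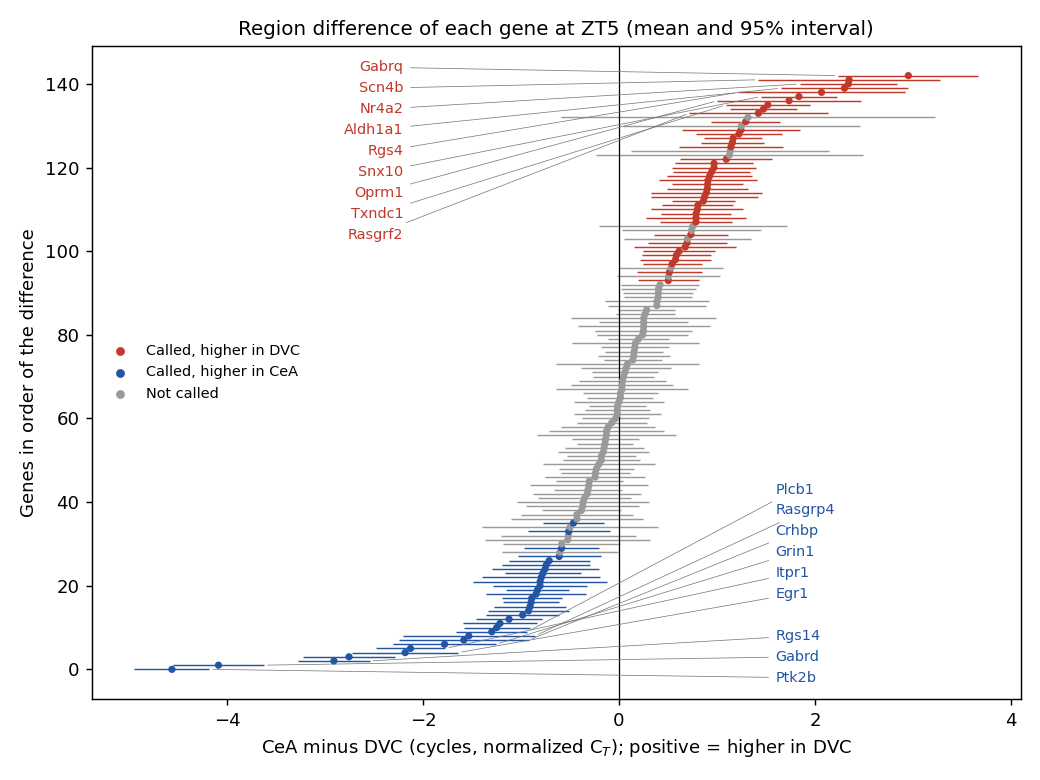
Difference between the regions at ZT5 for each of the 143 genes tested, in order of size (vertical axis, rank; horizontal axis, CeA minus DVC in cycles, mean over animals with both regions with its 95% confidence interval from limma). Red points are the 41 genes called higher in the DVC and blue points the 31 called higher in the CeA; Ptk2b and Gabrd lie apart at −4.56 and −4.09 cycles, and Gabrq is at the other end at 2.95.

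Which genes are called depends on how samples are brought to a common level, because the offset between the regions can be removed, kept or replaced. Under 4 alternatives that also remove it (centring each sample on its median, the same within each assay set, and quantile normalization of the ZT5 samples as a whole or within each assay set), 52 of the 72 genes kept call and direction in every one, 30 toward the DVC and 22 toward the CeA. Without normalization, the median of all genes, 0.06 cycles with the deposited values, moved by 0.92 cycles toward the DVC to 0.98, and 11 of the 31 CeA genes changed sign. With quantile normalization per region it moved by 1.03 cycles toward the DVC, to 1.08, and 18 of the 31 changed sign. With Hprt, a housekeeping gene of purine salvage, subtracted from each sample, the median fell by 1.33 cycles toward the CeA, to −1.27, and 30 of the 41 DVC genes changed sign. Hprt itself differed between the regions, by 0.58 ± 0.17 cycles (SE) toward the DVC (adjusted p = 0.00832), and by 1.33 ± 0.50 cycles (SD, 12 of 12 animals) when samples were centred on their medians. Under all 7 alternatives 13 genes kept call and direction, among them Aldh1a1, Gabrq, Rgs4, Scn4b and Snx10 higher in the DVC, and Crhbp, Egr1, Gabrd, Itpr1, Ptk2b, Rasgrp4 and Rgs14 higher in the CeA.

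**Figure D2:**
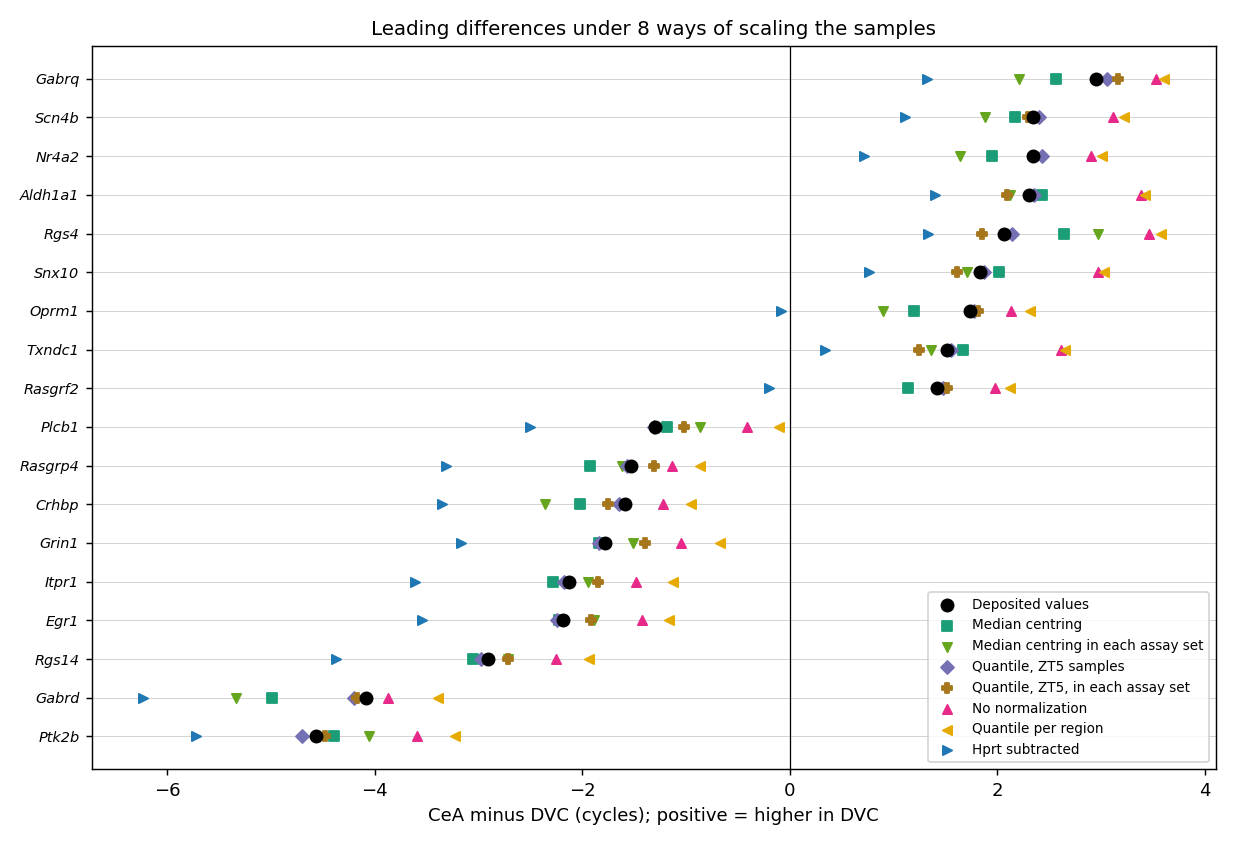
In each direction, 9 of the 10 largest called differences (rows) under the deposited normalization (black circles) and 7 other ways of scaling the samples (coloured symbols); horizontal axis, CeA minus DVC in cycles, positive for higher in the DVC. The symbols of Ptk2b and Gabrd stay below −3 cycles throughout, whereas Hprt subtraction puts Oprm1 at −0.08 and Rasgrf2 at −0.20.

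Among the genes higher in the CeA were a tyrosine kinase, a GABA-A subunit and parts of the calcium and kinase machinery beneath receptors. Ptk2b (NCBI gene identifier 50646), the calcium-activated tyrosine kinase Pyk2, had C_T values from 14.97 to 16.20 in the CeA with a median of 15.39, and from 19.15 to 20.50 in the DVC with a median of 20.004. No DVC value came near the highest CeA value, and all 12 animals with both values had more Ptk2b in the CeA. The difference was −4.56 ± 0.18 cycles (SE), or about 23.6-fold (adjusted p = 5.1e-12). The SD between animals was 0.41 cycles in the CeA and 0.42 in the DVC, and the difference kept this size in the animals numbered below 150 (−4.71) and in those numbered above (−4.49).

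Gabrd (29689), the delta subunit of extrasynaptic GABA-A receptors, lay between 21.07 and 22.36 in the CeA (median 21.64) and between 24.38 and 27.12 in the DVC (median 25.78). Its highest DVC value was the highest normalized C_T possible, which quantile normalization gives to the gene ranked last in a sample. The level in that DVC sample was thus at the end of the normalized scale, which does not show the limit of the assay. Gabrd was higher in the CeA in 12 of 12 animals, with a difference of −4.09 ± 0.22 cycles or 17-fold (limma, adjusted p = 2.6e-10). Rgs14 (114705), a G-protein regulator that also binds Ras and is abundant in hippocampal area CA2, ranged from 17.36 to 19.09 in the CeA (median 18.36) and from 20.18 to 22.51 in the DVC (median 21.30). The groups again did not overlap, and the difference was −2.91 ± 0.17 cycles (7.51-fold, adjusted p = 7.27e-10).

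Itpr1 (25262), the main neuronal IP3 receptor of the endoplasmic reticulum, ranged from 17.67 to 19.24 in the CeA (median 18.70) and from 20.07 to 22.31 in the DVC (median 20.54). Its difference was −2.13 ± 0.17 cycles (4.37-fold, adjusted p = 3.26e-08), in the same direction in 12 of 12 animals.

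Another 5 genes were among the 10 largest differences toward the CeA, and in all of them the ranges of the regions overlapped. Egr1, an immediate early transcription factor, lay between 17.50 and 19.70 in the CeA (median 18.12) and between 18.76 and 22.23 in the DVC (median 20.58), and was higher in the CeA in 12 of 12 animals (−2.18 ± 0.25 cycles, adjusted p = 3.66e-06). The obligatory NMDA receptor subunit Grin1 differed by −1.78 ± 0.25 cycles (adjusted p = 1.82e-05) and the corticotropin-releasing factor binding protein Crhbp by −1.58 ± 0.31 cycles (adjusted p = 0.000508), the latter in 11 of 12 animals. Rasgrp4, a guanine nucleotide exchange factor for Ras, was measured in both regions of 9 animals and differed by −1.53 ± 0.31 cycles. Plcb1, the receptor-coupled phospholipase C beta 1, differed by −1.30 ± 0.17 cycles in 11 of 11 animals, but its call was lost without normalization and with quantile normalization per region, and that of Grin1 without normalization.

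Toward the DVC, the largest difference was that of another GABA-A subunit. Gabrq (65187), the theta subunit, which is found in monoaminergic neurons, ranged from 20.11 to 22.76 in the DVC (median 22.08) and from 24.00 to 27.12 in the CeA (median 24.52), where 3 of the 14 reactions failed. All 10 animals with both values had more Gabrq in the DVC, by 2.95 ± 0.33 cycles (7.75-fold, adjusted p = 5.92e-06). Nr4a2 (54278), the orphan nuclear receptor Nurr1, ranged from 20.97 to 22.53 in the DVC (median 21.73) and from 23.20 to 24.96 in the CeA (median 24.19). The regions did not overlap, and the difference was 2.34 ± 0.23 cycles (5.07-fold, adjusted p = 3.73e-07) in 13 of 13 animals; after Hprt subtraction it kept its direction but not its call.

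Snx10 and Rgs7 also separated without overlap. Snx10 (297096), a sorting nexin of endosomes, lay between 14.72 and 17.14 in the DVC (median 16.05) and between 17.25 and 18.42 in the CeA (median 17.98), and differed by 1.84 ± 0.18 cycles in 13 of 13 animals (adjusted p = 3.73e-07). Rgs7 (54296), a neuronal regulator that speeds the return of Gi/o proteins to rest, lay between 18.04 and 19.71 in the DVC (median 19.09) and between 19.87 and 20.44 in the CeA (median 20.35). Its difference of 1.16 ± 0.15 cycles (adjusted p = 1.14e-05) is smaller than that of many genes whose regions overlapped, and it was singled out here, after its values were seen, because its CeA samples lay so close together. It turned after Hprt subtraction. Over the whole panel, 9 genes had no overlap between the regions (6.29%), 4 of them toward the DVC and 5 toward the CeA.

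Scn4b, Aldh1a1 and Rgs4 had large mean differences but a wide spread in the CeA. Scn4b, a sodium channel beta subunit, ranged from 18.84 to 21.10 in the DVC (median 20.07) and from 19.93 to 23.62 in the CeA (median 22.78). The difference was 2.35 ± 0.44 cycles, with 2 of 12 animals the other way (adjusted p = 0.000337). It was 0.63 cycles in the animals numbered below 150 (adjusted p = 0.561), the mean of −0.65, −0.89, 3.18 and 0.90, against 3.20 in those above. Aldh1a1, a retinaldehyde dehydrogenase found in astrocytes and in catecholamine neurons, ranged from 16.32 to 18.02 in the DVC (median 16.91) and from 16.74 to 21.92 in the CeA (median 19.20), with a difference of 2.30 ± 0.31 cycles in 12 of 13 animals (adjusted p = 9.51e-06).

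Rgs4, which ends Gi/o and Gq signals and is among the most abundant transcripts of the panel, took the lowest C_T of the sample in 9 of the 17 DVC samples and in 2 of the CeA samples. Its DVC values lay between 11.38 and 13.47 (median 11.38) and its CeA values between 11.38 and 16.87 (median 14.63). The difference was 2.07 ± 0.40 cycles (adjusted p = 0.000508), with no animal the other way and 3 of 11 animals tied at the same step of the normalization. In the animals numbered below 150 it was 0.71 cycles (adjusted p = 0.421) and in those above 2.57. The first is the mean of only 0, 2.14 and 0 cycles, where each 0 is such a tie.

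The remaining large DVC differences were those of the mu opioid receptor Oprm1 (1.74 ± 0.34 cycles, adjusted p = 0.000531), the thioredoxin-related Txndc1 (1.52 ± 0.20, adjusted p = 9.51e-06) and the Ras exchange factor Rasgrf2 (1.42 ± 0.33, adjusted p = 0.00198). Txndc1 was higher in the DVC in 13 of 13 animals, Oprm1 in 11 of 12 and Rasgrf2 in 10 of 11. The Rasgrf2 difference was 0.70 cycles in the animals numbered below 150 (adjusted p = 0.478), the mean of 1.67, −1.45, 2.14 and 0.44, and 1.84 in those above. After Hprt subtraction Oprm1 and Rasgrf2 turned and Txndc1 was no longer called. The plot of the leading genes shows every sample.

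**Figure D3:**
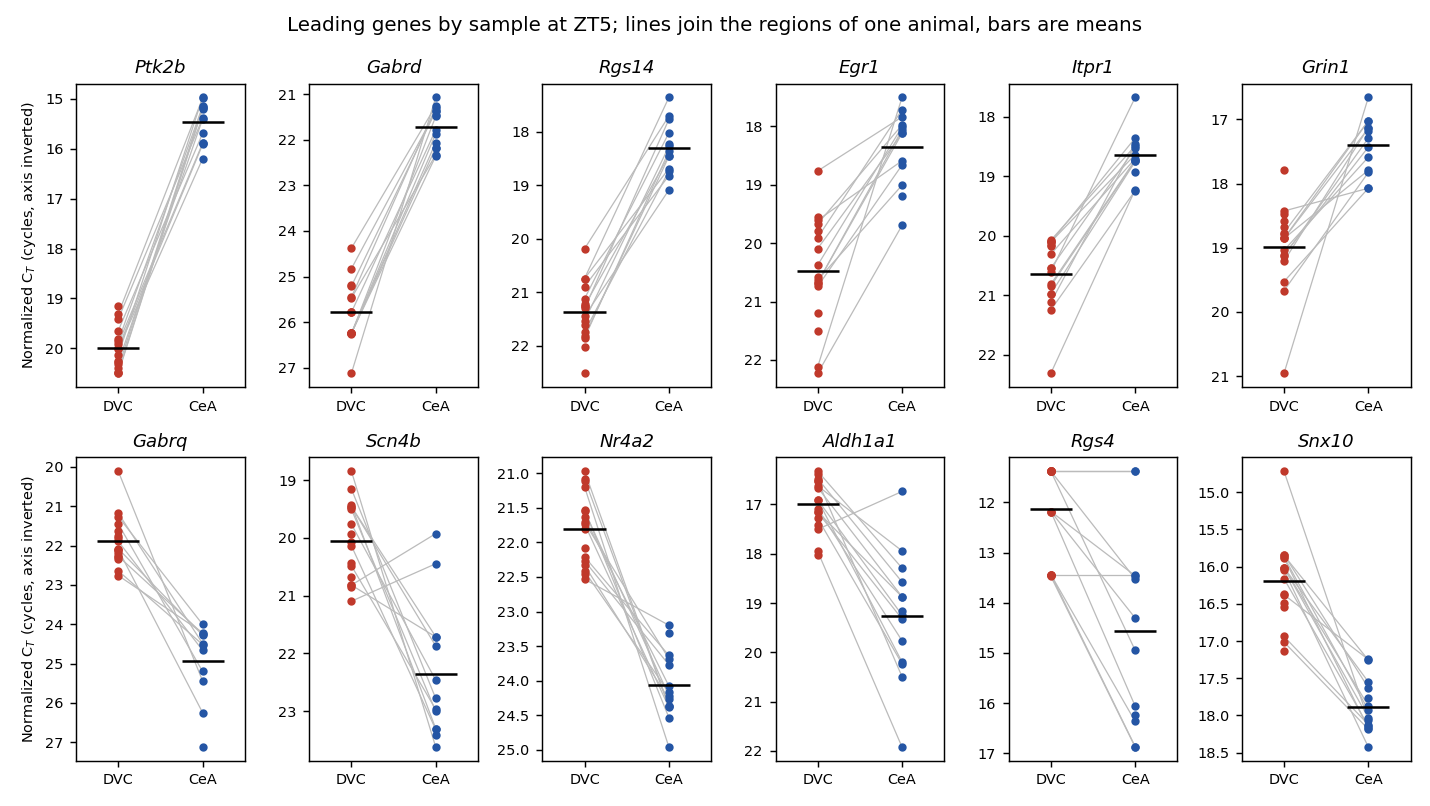
Normalized C_T (cycles, vertical axis inverted so that higher expression is up, range set for each gene) of 6 genes higher in the CeA (top) and 6 higher in the DVC (bottom) in each DVC (red) and CeA (blue) sample at ZT5; grey lines join the regions of 1 animal and black bars are the means. Ptk2b, Gabrd, Rgs14, Itpr1, Gabrq, Nr4a2 and Snx10 show no overlap between the regions, whereas the CeA samples of Scn4b, Aldh1a1 and Rgs4 spread into the DVC range.

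A few genes were measured more often in the DVC than in the CeA, and of these Slc6a2 alone passed the test after adjustment. Slc6a2 (83511), the noradrenaline transporter of noradrenergic neurons, gave a value in 16 of 17 DVC samples (20.95 to 22.64, median 21.39) and in 1 of the 13 CeA samples in which it was assayed, at 26.25. In 11 of 12 animals it was measured in the DVC alone and in none in the CeA alone (exact McNemar test, two-sided, p = 0.000977; adjusted over the 37 genes with any failed reaction, p = 0.0361). The angiotensin type 2 receptor Agtr2 had values in 17 of 17 DVC and 3 of 13 CeA samples, the transcription factor Fosl1 in 11 of 17 and 1 of 13, and the betaine and GABA transporter Slc6a12 in 17 of 17 and 5 of 14. For these 3 genes the exact McNemar test did not pass after adjustment (adjusted p = 0.0723 for each). A failed reaction sets only a bound, and the few CeA values of Agtr2 lay between 25.77 and 27.12, at the top of the scale. No gene passed this test in the other direction. Failures were set before normalization, when the median C_T was higher in the CeA, and the part of this offset in them was not tested.

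Set against the markers chosen for the regions, the labels were met in part. Slc6a2 marked the DVC as described. Of the CeA markers, Gad1, which makes GABA, lay at −0.35 ± 0.22 cycles (adjusted p = 0.205) and Slc32a1, the vesicular GABA transporter, at −0.18 ± 0.18 (adjusted p = 0.417), so neither was called. Rgs9 and Scn4b, which are abundant in striatum, were higher in the DVC, Rgs9 by 0.73 ± 0.18 cycles (adjusted p = 0.00242). In the animals numbered below 150, however, Rgs9 differed by 0.03 cycles (adjusted p = 0.956), with 3 of 4 animals higher in the CeA, against 1.08 in those above. Both genes kept this direction in every scaling except that Rgs9 turned after Hprt subtraction. The CeA samples were therefore not set off by the CeA markers chosen here, and they stand for tissue punched as CeA.

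Markers of other cells did not move in 1 direction. Of the astrocyte genes, Aldh1a1 was higher in the DVC, Clu, a secreted chaperone, had a difference of −1.21 cycles that other scalings turned (below), and the GABA-A subunit Gabrg1 lay at 0.15 ± 0.17 cycles (adjusted p = 0.484). Ptgs1, cyclooxygenase 1 of microglia and vessels, differed by −0.51 ± 0.20 cycles (adjusted p = 0.0394), but this call ended without CeA replicate 1 (−0.40, adjusted p = 0.083) and in 7 of 13 fits that left out 1 animal, and the sign turned without normalization and with quantile normalization per region. Slc6a12, chosen with Ptgs1 as a marker of meninges, vessels and microglia, lay on the other side at 1.13 cycles in 5 animals and was not called. It had values in 17 of 17 DVC and 5 of 14 CeA samples. Plcb2 and Plcg2, phospholipases of blood and immune cells, were not called (−0.13 and 0.24 cycles). The part of other cell types in the differences between the regions was not tested.

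The counts of called genes in the lists that follow stand beside 50.3% called over the whole panel, 28.7% toward the DVC and 21.7% toward the CeA. The receptors for GABA and glutamate held subunits called in each direction. Of 9 GABA-A subunits, 3 were called toward the DVC and 1 toward the CeA (44.4% called, near the panel's share), at a median of 0.15 cycles against 0.06 over all genes tested, and the counts became 7 and 1 with quantile normalization per region and 1 and 7 with Hprt subtracted. None of the 4 genes of GABA synthesis and transport was called, and the counts became 3 and 0 or 0 and 3 under the same scalings. Of 11 genes for glutamate receptors and their scaffold, 2 were called toward the DVC and 5 toward the CeA (63.6% called, median −0.60 cycles), which became 5 and 1 or 0 and 8. Besides Grin1, the CeA genes included the NMDA subunit Grin2c (−1.25 ± 0.16 cycles) and the AMPA subunit Gria2 (−1.12 ± 0.16), each in 12 of 12 animals. The call of Grin2c was lost with both scalings that keep the offset between the regions, and the sign of Gria2 turned with quantile normalization per region, where it lay at 0.02. Grin3a and Grin2a were the 2 glutamate subunits called higher in the DVC, and both turned after Hprt subtraction.

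Among receptors for peptides, steroids, purines and growth factors, 9 genes were tested, and 3 were called toward the DVC and 3 toward the CeA (66.7% called, median −0.43 cycles), against 5 and 1 with quantile normalization per region and 0 and 7 with Hprt subtracted. P2rx4, an ATP-gated channel, was higher in the DVC in 10 of 10 animals, by 1.14 ± 0.24 cycles, and turned after Hprt subtraction. The P2rx4 difference was 1.87 cycles in the animals numbered below 150 and 0.66 in those above. In the angiotensin system 3 of 5 genes were called (60%), all higher in the DVC (median 0.97 cycles). They included Agtrap, which binds the type 1 receptor (1.10 ± 0.22 cycles, 12 of 12 animals), and Ace, which makes angiotensin II (0.97 ± 0.20). Agtrap differed by 2.08 cycles in the animals numbered below 150 and by 0.60 in those above. All 3 called genes turned after Hprt subtraction, which called 2 of the 5 genes higher in the CeA.

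Of 9 genes of the Rgs family, whose products shorten G-protein signals, 5 were called higher in the DVC and Rgs14 in the CeA (66.7% called against 50.3% of the panel, median 0.73 cycles). The counts were 8 and 1 with quantile normalization per region and 1 and 5 after Hprt subtraction, where Rgs4 remained higher in the DVC. Rgs6, a relative of Rgs7, differed by 1.29 ± 0.16 cycles in 11 of 11 animals, a call that was lost after Hprt subtraction. No gene for G-proteins, adenylyl cyclase or receptor desensitization was called among 6 (median 0.12 cycles), with Gprk6 at 0.40, Arrb2 at 0.28 and Adcy9 at 0.25. Arrb2 was called without the animal of replicate 17 (0.34 cycles, adjusted p = 0.0336). Quantile normalization per region called all 6 higher in the DVC and Hprt subtraction called all 6 higher in the CeA.

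Protein kinase C genes were called in 7 of 8 cases, 2 toward the DVC and 5 toward the CeA (87.5% called, median −0.71 cycles), which became 4 and 1 with quantile normalization per region and 0 and 8 with Hprt subtracted. The assay named PKCe, for the epsilon isoform, was higher in the CeA in 12 of 13 animals (−0.91 ± 0.17 cycles) and turned without normalization and with quantile normalization per region.

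Of the 6 genes for phospholipase C and IP3 receptors, Itpr1 and Plcb1 were called, both higher in the CeA (33.3% called, median of the list −0.14 cycles), whereas quantile normalization per region called 2 toward the DVC and 1 toward the CeA, and Hprt subtraction called all 6 higher in the CeA. Of 16 genes of the Ras, Raf and MAP kinase cascade, 2 were called toward the DVC and 4 toward the CeA (37.5% called, median −0.31 cycles), against 10 and 1 or 0 and 14 under these scalings. Elk1, a transcription factor phosphorylated by MAP kinases, differed by −0.89 ± 0.14 cycles in 12 of 12 animals and turned with quantile normalization per region. Of 8 genes for PI3 kinase, Akt, mTOR and Pak, the regulatory subunit Pik3r3 was called higher in the DVC (0.91 ± 0.17 cycles, 11 of 11 animals) and the kinase Pdpk1 higher in the CeA (−0.81 ± 0.23), with counts of 8 and 0 or 0 and 7 under the same scalings. Pik3r3 turned after Hprt subtraction, and Pdpk1 turned without normalization, with quantile normalization per region and with centring within each assay set. These 2 of 8 make 25%. Pak3 lay at 0.75 ± 0.45 cycles and was not called, and without the animal of replicate 6, whose difference was 6.23 cycles, it lay at 0.26. Of 7 phosphatases, Ppp1cc was called higher in the DVC (0.79 ± 0.24 cycles) and Ptpn1 higher in the CeA (−0.46 ± 0.15), while Ppp1cb lay at 0.53 ± 0.25, and the counts, 28.6% called, became 7 and 0 or 0 and 6. Ppp1cb was called without the animal of replicate 17 (0.63 cycles, adjusted p = 0.044). Ppp1cc turned after Hprt subtraction and Ptpn1 with both scalings that keep the offset. The Ppp1cc difference was 3.06 cycles in the animal of replicate 3. Leaving out 1 animal at a time put Ppp1cc between 0.58 and 0.89 cycles, with its call kept.

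Of 11 transcription factors tested, 3 were called toward the DVC and 2 toward the CeA (45.5% called against 50.3% of the panel, median 0.25 cycles), which became 8 and 1 with quantile normalization per region and 0 and 8 with Hprt subtracted. Jun, a member of the AP-1 complex, was higher in the DVC by 0.93 ± 0.20 cycles and turned after Hprt subtraction, while Egr1 stayed higher in the CeA throughout. Among 6 genes for DNA methylation, chromatin, repair and telomeres, 3 were called (50%), all higher in the DVC (median 0.52 cycles), and all 3 turned after Hprt subtraction, which called 5 of the 6 toward the CeA. They were the methyl-CpG binding protein Mbd1 (0.90 ± 0.19 cycles, 12 of 12 animals), Dmap1 (0.87 ± 0.26), which binds the maintenance methyltransferase, and the tRNA methyltransferase Dnmt2 (0.54 ± 0.14). The Dmap1 difference was 4.01 cycles in the animal of replicate 17. Leaving out 1 animal at a time put Dmap1 between 0.61 and 0.96 cycles, with its call kept. Of 5 ion channels, 3 were called, all higher in the DVC (60% against 28.7% of the panel toward the DVC, median 1.14 cycles), with counts of 4 and 0 under quantile normalization per region and 1 and 1 after Hprt subtraction. Beside Scn4b these included the potassium channel Kcna2 (1.25 ± 0.28 cycles, 11 of 13 animals), which turned after Hprt subtraction and lay at 0.14 cycles in the animals numbered below 150 (adjusted p = 0.852) against 1.93 in those above. The channel Kcnj9 lay at 1.14 ± 0.48 and was not called (adjusted p = 0.0566). Leaving out 1 animal at a time put Kcnj9 between 0.82 and 1.57 cycles, and it was called without the animal of replicate 3 (adjusted p = 0.0417) or without that of replicate 17 (adjusted p = 0.000942), whose own difference was −4.10 cycles. Of the 23 other genes, 10 were called toward the DVC and 6 toward the CeA (69.6% called), against 15 and 1 or 2 and 12.

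**Figure D4:**
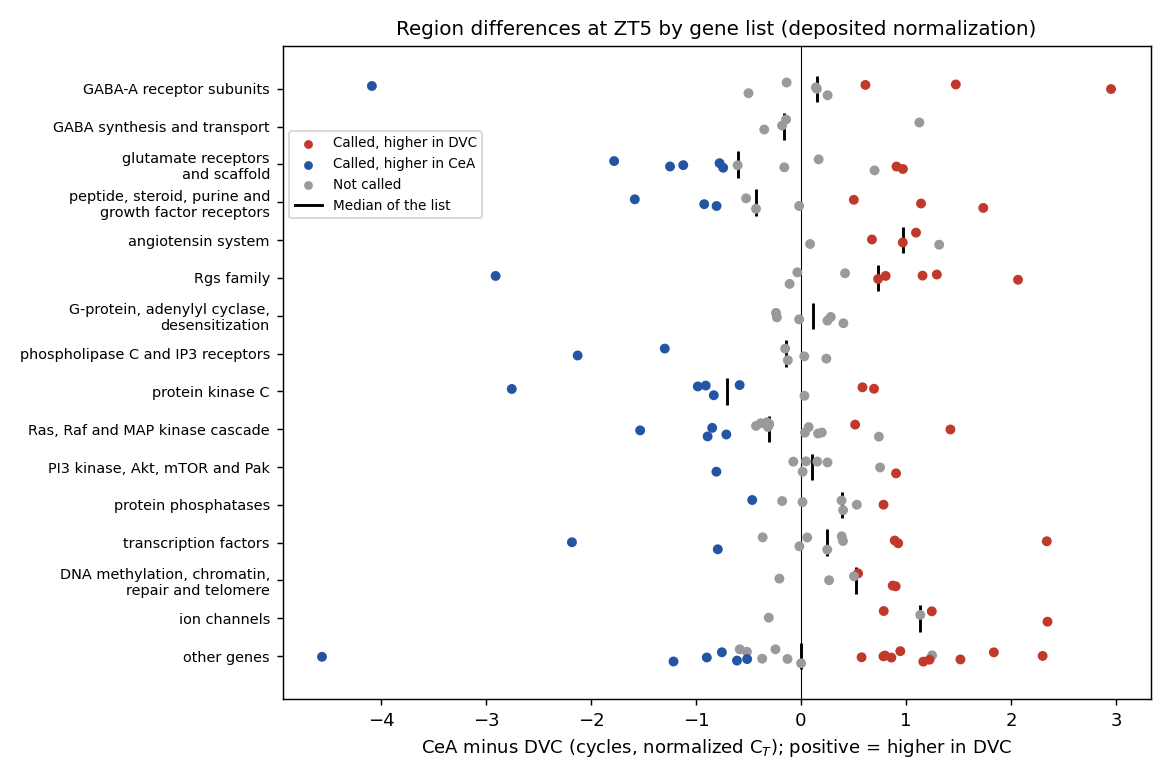
CeA minus DVC difference (horizontal axis, cycles, deposited normalization) of each gene tested, by gene list (rows); red and blue points are genes called toward the DVC or toward the CeA, grey points were not called, and black bars are list medians. GABA-A subunits span from −4.09 to 2.95 cycles and transcription factors from −2.18 to 2.34, and the median of all genes, 0.06 here, lies at 1.08 with quantile normalization per region and at −1.27 with Hprt subtraction.

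The 5 smallest differences were those of Ndufa5 (0.00066 cycles, 95% interval −0.46 to 0.46), Ptpn2 (0.01, −0.32 to 0.35), Akt1 (0.02, −0.37 to 0.40), Sp1 (−0.02, −0.31 to 0.28) and Arrb1 (−0.02, −0.35 to 0.31). Ndufa5 belongs to complex I of the respiratory chain, Ptpn2 is a tyrosine phosphatase, Akt1 a kinase, Sp1 a general transcription factor and Arrb1 an arrestin. The intervals bound each of these differences to under 0.5 cycles under the deposited normalization alone. Arrb1 and Sp1 turned positive without normalization and with quantile normalization per region. Median centring, which removes the offset between the regions, turned Ptpn2 negative with a call. Quantile normalization within each assay set, which also removes it, turned Arrb1 positive with a call. Hprt subtraction turned Akt1, Ndufa5 and Ptpn2 negative, each with a call. The interval lay within 0.5 cycles on both sides for 15 genes of the panel.

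The spread between animals was a little larger in the DVC, with a median SD over genes of 0.53 cycles against 0.46 in the CeA, and the DVC had the larger SD for 87 of 143 genes. The SD of the difference within animals was 0.74 cycles at the median. The animals fall into 5 numbered below 150 and 8 above. For many genes fewer of the 5 had values from both regions. All 72 called genes except Slc9a3r1 had the same direction in both sets of animals, and 18 were called in the smaller set alone and 74 genes, 64 of them among the 72, in the larger. Leaving out CeA replicate 1 gave 72 called genes, 71 of them the same, with Ptgs1 lost and the NMDA subunit Grin2b gained (−0.80 cycles, adjusted p = 0.0108). The largest change of any difference was 0.31 cycles, for Kcnj9.

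The same comparison in other animals at ZT3 (7 with both regions) and ZT9 (12) gave mostly the same directions. Of the 72 genes called at ZT5, 72 had the same direction at ZT3 and 60 were called there, and 71 had the same direction at ZT9 and 54 were called there, with none called the opposite way. Over all genes tested there, 80 were called at ZT3 (56.3%; 31% toward the DVC and 25.4% toward the CeA) and 72 at ZT9 (50.3%; 30.8% and 19.6%). Ptk2b differed by −4.45 cycles at ZT3 and −4.51 at ZT9, Gabrd by −3.90 and −3.01, and Rgs14 by −3.23 and −3.45. Gabrq differed by 3.23 and 3.38 cycles, Snx10 by 1.91 and 2.14, and Nr4a2 by 2.001 and 1.86. Rgs4 was the exception, at 1.01 cycles at ZT3 (adjusted p = 0.0895) and −0.003 at ZT9 (adjusted p = 0.996), and its change from ZT9 to ZT5 did not pass the test (adjusted p = 0.294).

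A test of whether the difference between the regions itself depended on time called 0 genes between ZT5 and ZT3 (limma on the differences within animals; 5 genes at an unadjusted p of at most 0.05, 4 without the animal) and 2 between ZT5 and ZT9 (1.41%), Clu and Gabrg1. The smallest p-values between ZT5 and ZT3 belonged to Clu (−1.12 ± 0.31 cycles, adjusted p = 0.126), Hprt (−0.86 ± 0.29, adjusted p = 0.412) and the receptor Crhr2 (−1.87 ± 0.65, adjusted p = 0.413). For Clu the CeA minus DVC difference was −1.21 cycles at ZT5 and −0.08 at ZT9 (change −1.14, adjusted p = 0.0171). For Gabrg1 it was 0.15 at ZT5 and −0.68 at ZT9 (change 0.83, adjusted p = 0.0416). Neither was called when samples were centred on their medians or left without normalization.

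**Figure D5:**
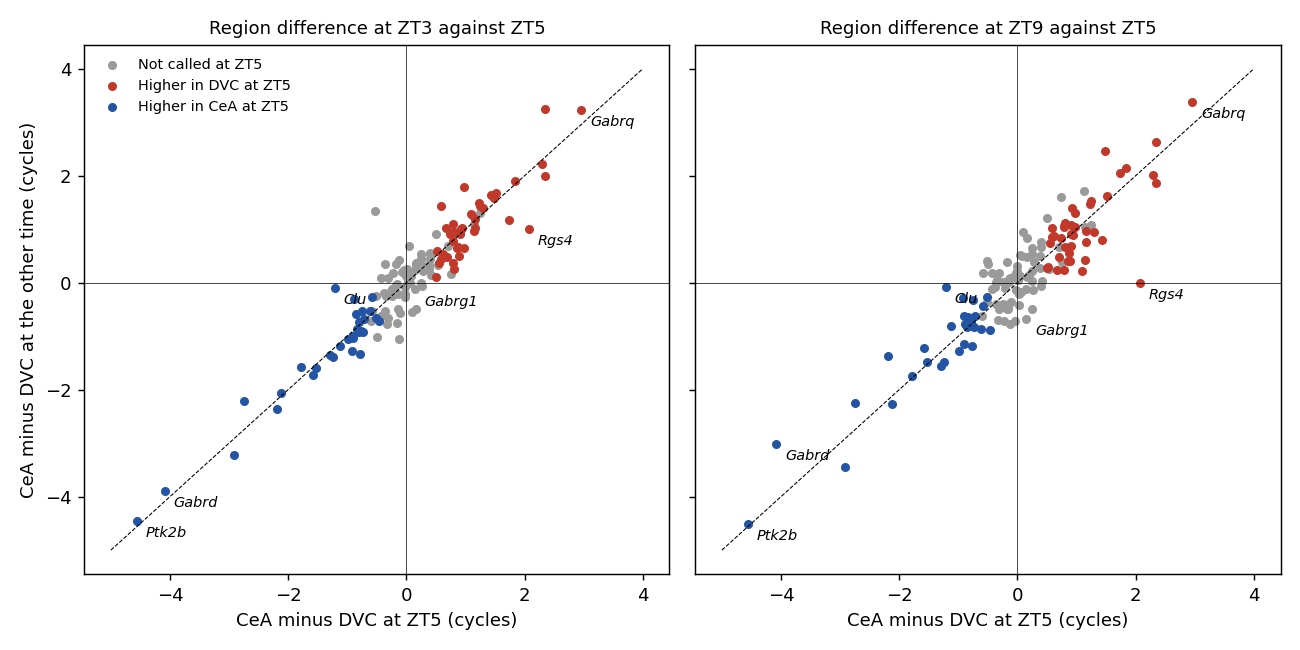
CeA minus DVC difference (cycles) of each gene at ZT3 (left, vertical axis) and ZT9 (right, vertical axis) against that at ZT5 (horizontal axis), each from different animals; red and blue points are genes called toward the DVC or toward the CeA at ZT5, grey points were not called, and the dashed line marks equal differences. Ptk2b lies on the line at both times, whereas Clu at ZT5 (−1.21) and Rgs4 at ZT9 (−0.003) lie off it.

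Clu was among the genes with the lowest C_T. Clu, Pebp1 and Rgs4 held the lowest place in 31 of 31 samples, the second in 29 and the third in 21, and in the CeA the third in 5 of 14. At these places quantile normalization assigns 11.38, 12.21 and 13.49 cycles, so that a change of 1 place is worth 0.83 or 1.28 cycles. Clu held the third place in 10 of 17 DVC samples and the first or second in 13 of 14 CeA samples. Rgs4 held the first place in 9 DVC samples and in 2 CeA samples. Centred on sample medians, Clu differed by 0.03 cycles (adjusted p = 0.884), with quantile normalization within assay sets by 0.00, without normalization by 0.98 toward the DVC and with Hprt subtracted by −1.27. The direction of Clu between the regions at ZT5 turned with the scaling, and the part of the order of the lowest C_T values in it was not tested.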

How the data were processed

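RNA from DVC and CeA micropunches was measured by microfluidic qRT-PCR after 14 cycles of pre-amplification. The authors deposited C_T values, a log2 scale of cycles, and the same values after quantile normalization of all samples. The second were used, with failed reactions missing. Quantile normalization in limma 3.58.1 (R 4.3.3) returned the deposited log2-scale values to within 4.99e-09 cycles. A table of the authors' own differences between time points was not used. Samples were grouped by their labels and paired by animal; replicate numbers name animals within a time point. Deviations from the region means correlated within animals at a median of 0.21 (−0.30 to 0.40, 13 animals). Genes with values from both regions in at least 3 animals were tested in limma with the animal as a block, at an adjusted p of 0.05. Slc6a2 and Fosl1 were not tested. Per-animal differences were tested by exact sign flips, and failed reactions by McNemar's test, in Python 3.11.15 with scipy 1.17.1. On simulated data, limma called 36 of 39 shifted genes and 1 other. The settings of the simulation are not given here, so these counts are not error rates for the calls in the report. Precision is limited by the number of animals and by failed reactions. Whether a sample was extracted with the RNeasy or the AllPrep kit is not given in the sources used here. Separate punches of separate animals are the replicates.

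Named genes were the 10 largest called differences in each direction, up to 3 members of each gene list by size, the 5 smallest differences, genes whose failures differed, genes with time-dependent differences and the cell type markers. Some genes that this rule names are not reported here, though counts include them. Members and lists were chosen with earlier results of these data known. Alternatives were the scalings described in the report, the animal left out or taken as random, one-way analysis of variance, filters on failed reactions, and samples left out. Quantile normalization within assay sets, leaving out the 3 samples that stand apart and a filter without CeA replicate 1 were added after seeing the data. Identifiers were found in the RefSeq gene table (GRCr8) for 144 of 145 genes, 16 under another symbol.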

Additional observations from a re-analysis of the deposited data

Results flagged for a closer look

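The difference between the regions changed from ZT9 to ZT5 for Clu, by −1.14 cycles (limma on differences within animals, adjusted p = 0.0171). Within animals the CeA minus DVC difference of Clu ran from −2.11 to 0.00 cycles at ZT5, with 12 of 13 animals below 0, and from −1.30 to 1.35 at ZT9, with 4 of 12 below 0. Centred on sample medians, the mean differences were 0.03 at ZT5 and −0.14 at ZT9. The part of the order of the lowest C_T values in the Clu result, whose values stand in the report, was not tested.

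The other such change was that of Gabrg1, by 0.83 cycles (adjusted p = 0.0416). Its difference was 0.15 ± 0.60 cycles at ZT5 (SD, 13 animals, 9 of them above 0) and −0.68 ± 0.54 at ZT9 (12 animals, none above 0). Centred on sample medians, it was 0.14 and −0.67 cycles, nearly the same values, but it was not called there.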

How the results depend on the processing

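Without the animal (no replicate block, all 31 samples) 85 genes were called in place of 72, 51 toward the DVC and 34 toward the CeA, and with the animal as a random block 84. One-way analysis of variance called 86 genes unadjusted and 82 after Benjamini-Hochberg adjustment. Leaving out 1 animal at a time gave 69 to 78 called genes, 40 to 47 toward the DVC, 28 to 32 toward the CeA and 30 to 35 of at least 1 cycle. Without the 3 samples that stand apart 83 genes were called, 71 of them among the 72. Requiring a value in every sample left 55 genes, of which 30 were called, 20 and 10 by direction, 11 of at least 1 cycle. The 5 animals numbered below 150 gave 18 called genes, 8 and 10, all 18 of at least 1 cycle.

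Without normalization 84 genes were called, 76 toward the DVC and 8 toward the CeA (90.5% toward the DVC against 56.9%), 72 of at least 1 cycle. Quantile normalization per region called 110, 101 and 9 (91.8%), 84 of at least 1 cycle. Hprt subtraction called 110, 5 and 105 (4.55%), 87 of at least 1 cycle. Centring within assay sets called 46 of at least 1 cycle. The split by direction moved with the scaling.

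Signs turned as follows. Hprt subtraction gave Ace −0.43, Adcy9 −1.27, Agtrap −0.40, Akt1 −1.27, Arrb2 −1.09, Dmap1 −0.31, Dnmt2 −0.89, Gabrg1 −1.17, Gprk6 −1.34, Jun −0.34, Kcna2 −0.049, Mbd1 −0.75, Ndufa5 −0.61, Oprm1 −0.083, P2rx4 −0.34, Pik3r3 −0.46, Plcg2 −1.57, Ppp1cb −0.79, Ppp1cc −0.91, Ptpn2 −2.03, Rasgrf2 −0.20, Rgs7 −0.21 and Rgs9 −0.61 cycles. Quantile normalization per region gave Arrb1 1.05, Clu 0.31, Elk1 0.15, Gad1 0.74, Gria2 0.017, PKCe 0.17, Pdpk1 0.63, Ptgs1 0.36, Ptpn1 0.62 and Sp1 1.01. No normalization gave Arrb1 0.74, Clu 0.98, PKCe 0.055, Pdpk1 0.61, Ptgs1 0.17, Ptpn1 0.32 and Sp1 0.90. Median centring gave Clu 0.028 and Ptpn2 −0.70, centring within assay sets Pdpk1 0.14, and quantile normalization within assay sets Arrb1 0.33. The cause was not tested.

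Of the 2 genes with a time-dependent difference, 0 were called without the animal (no replicate block), without normalization, with median centring or in the higher-numbered animals alone, and 1 without the 2 half-measured CeA samples. C_T values near 27.12, the highest normalized value, limit what can be said of genes such as Gabrd in the DVC and Gabrq in the CeA.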
